A study of Homo sapiens with 27 samples.

Results

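The aldo-keto reductase genes AKR1A1, AKR1B1, AKR1B10, AKR1C1, AKR1C2, AKR1C3 and AKR7A2 were followed in 2 human cancer cell lines treated with Compound Kushen Injection (CKI), a mixed extract of the herbs Kushen and Baituling. Members were the rows of the deposited count table whose Entrez ID maps to one of these symbols, and 7 of 24566 rows were members, each gene on a row of its own. The table held 27 libraries in 9 groups, with 3 replicates in each, described by the submitters as biological replicates. The A431 groups, from an established epidermoid carcinoma line, were untreated, vehicle control, CKI, doxorubicin, and CKI plus doxorubicin. The MDA-MB-231 groups, from an established breast adenocarcinoma line, were untreated, CKI, 5-FU (fluorouracil), and CKI plus 5-FU. RNA was taken 48 h into treatment, CKI was given at 1 mg/ml and 5-FU at 10 µg/ml. The labels give more than 1 doxorubicin dose without assigning it, and do not say what the vehicle was. MDA-MB-231 had no vehicle group, so its CKI libraries were compared with untreated cells only.

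Aldo-keto reductases are soluble enzymes that use NADPH to reduce aldehydes and ketones to alcohols. AKR1A1 is a broad aldehyde reductase, AKR7A2 reduces succinic semialdehyde and other aldehydes, and AKR1B1 is aldose reductase, the first enzyme of the polyol pathway. AKR1B10 reduces retinal and lipid aldehydes, and AKR1C1, AKR1C2 and AKR1C3 are hydroxysteroid dehydrogenases, AKR1C1 being known for inactivating progesterone, AKR1C2 for inactivating dihydrotestosterone, and AKR1C3 for making testosterone and for prostaglandin synthesis. AKR1B10 and the AKR1C genes are widely used as readouts of NRF2, the transcription factor that answers electrophilic and oxidative stress, and several members also reduce anthracyclines such as doxorubicin.

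The AKR1C genes are near-copies of each other, and their sequences are shown first because they bear on how far the counts can separate the genes. On GRCh37 the trio lies on chromosome 10, AKR1C1 at chr10:5005445-5025475 (plus strand), AKR1C2 at chr10:5029967-5060223 (minus strand) and AKR1C3 at chr10:5077546-5149878 (plus strand). AKR1A1 is at chr1:46016215-46035721 (plus strand), AKR7A2 at chr1:19630459-19638638 (minus strand), AKR1B1 at chr7:134127108-134144036 (minus strand) and AKR1B10 at chr7:134212319-134226164 (plus strand). The coding sequences of AKR1C1 and AKR1C2 were 98.0% identical, with 19 differences in 972 bases, while AKR1C3 was 91.5% identical to AKR1C1 and 91.0% to AKR1C2. AKR1B1 and AKR1B10 were 76.1% identical. The stretch of the coding sequence below, bases 103 to 162 counted from the A of the start codon, holds 10 of the 19 differences between AKR1C1 and AKR1C2. Capitals in AKR1C1 and AKR1C2 mark the bases at which these genes differ from each other, and capitals in AKR1C3 mark its differences from AKR1C1.
AKR1C1: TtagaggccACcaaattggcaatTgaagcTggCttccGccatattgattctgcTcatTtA
AKR1C2: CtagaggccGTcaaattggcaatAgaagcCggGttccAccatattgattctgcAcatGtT
AKR1C3: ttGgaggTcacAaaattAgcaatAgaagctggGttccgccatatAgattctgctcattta

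Reads were paired, with 150 bases from each end. Of the windows of 150 bases in the canonical transcript, 7.91% of those of AKR1C1, 17.2% of AKR1C2 and 2.12% of AKR1C3 were also found letter for letter in another AKR1C gene, and none of the other members' windows were shared with a member. How the authors treated reads that match more than 1 gene is not given in the sources used here, so counts of the AKR1C genes are uncertain to that extent. AKR1C3 also overlaps exons of RP11-499O7.4, and strand was not recorded in these libraries.

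The region before the start of transcription was compared because the AKR1C genes moved together in these data. The 250 bases upstream, from RefSeq on GRCh38.p14, were 96.5% identical between AKR1C1 (chr10:4963165-4963414, plus strand) and AKR1C2 (chr10:5003858-5004107, minus strand). The 245 identical bases, of 254 aligned positions, formed an unbroken run, and the remaining positions lay at the ends of the windows. AKR1C3 (chr10:5094164-5094413, plus strand) was 69.2% identical to AKR1C1 over aligned positions. Capitals mark the longest run shared by the trio, 19 bases that begin 84, 88 and 93 bases before the start in AKR1C1, AKR1C2 and AKR1C3. RefSeq lists a second start for AKR1C3, and the one shown was taken because it carries the run letter for letter. The bases before the other start (chr10:5048531-5048780) hold a closely similar stretch, acatgctattggttaacca. Identity to AKR1C1 is given for the start shown only.
AKR1C1: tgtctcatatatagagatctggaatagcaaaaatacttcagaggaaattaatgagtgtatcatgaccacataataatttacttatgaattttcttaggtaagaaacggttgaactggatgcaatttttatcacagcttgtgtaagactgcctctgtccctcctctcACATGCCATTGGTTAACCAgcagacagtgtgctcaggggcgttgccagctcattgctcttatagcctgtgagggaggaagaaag
AKR1C2: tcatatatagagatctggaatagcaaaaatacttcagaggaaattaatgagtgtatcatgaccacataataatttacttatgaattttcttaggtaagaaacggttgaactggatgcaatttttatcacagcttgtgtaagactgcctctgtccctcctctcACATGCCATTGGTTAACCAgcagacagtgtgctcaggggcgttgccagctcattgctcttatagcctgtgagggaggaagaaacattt
AKR1C3: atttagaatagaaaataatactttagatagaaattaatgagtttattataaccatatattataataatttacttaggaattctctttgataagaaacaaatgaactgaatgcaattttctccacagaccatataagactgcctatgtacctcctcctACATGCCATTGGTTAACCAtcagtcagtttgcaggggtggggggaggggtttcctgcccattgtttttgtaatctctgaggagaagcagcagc

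Promoter windows of 300 bases, taken on both strands, were searched for the core of the antioxidant response element, TGACNNNGC, the letters through which NRF2 is known to bind. Of 35116 RefSeq promoters, 13.3% held it. AKR7A2 held 3 matches, which began 167, 156 and 95 bases before its start, and the windows of AKR1A1, AKR1B1, AKR1C1, AKR1C2 and AKR1C3 held none. The core of the xenobiotic response element, GCGTG, was in 36.5% of promoters and occurred once in AKR1B1 and in AKR7A2. The AP-1 site, TGANTCA, was in 7.71% and in none of these 6 genes. The AKR7A2 promoter (chr1:19312147-19312396, minus strand, GRCh38.p14) is shown with the 3 antioxidant cores in capitals, the first of them on the opposite strand. AKR1B10 was not searched, nor was any sequence outside these windows, so matches farther from the start would be missed.
AKR7A2: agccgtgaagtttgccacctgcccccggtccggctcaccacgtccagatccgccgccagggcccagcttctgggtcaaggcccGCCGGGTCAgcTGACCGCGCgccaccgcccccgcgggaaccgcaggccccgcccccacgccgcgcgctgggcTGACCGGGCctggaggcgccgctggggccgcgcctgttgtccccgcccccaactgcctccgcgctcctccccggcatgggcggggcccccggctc

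Levels below are CPM (read counts relative to library size), scaled with TMM factors over the 27 libraries. Changes are log2 fold changes ± standard error from edgeR's quasi-likelihood test. A gene was called when the Benjamini-Hochberg adjusted p over all genes tested was under 0.05 and the absolute log2 fold change was over 1, and "rose" and "fell" are used for called genes only. All 7 members passed the filter on low counts in both lines. Total counts ran from 17757206 to 21756536 in A431 and from 19871048 to 22809339 in MDA-MB-231. Of the marker genes of each line, 6 of 6 A431 markers and 6 of 6 MDA-MB-231 markers were higher in untreated cells of their own line, although SPARC was at only 2.99 CPM in MDA-MB-231. Untreated MDA-MB-231 replicate 1 stood apart. Its counts differed from those of replicates 2 and 3 with a chi-square per degree of freedom of 70.8 and 81.8, against 2.65 between replicates 2 and 3. Its deviation from the other replicates ran with the GC content of genes (Spearman's rho across genes -0.59). Tests that use that group were repeated without it, and both values are given for the members. The vehicle control replicates also differed more than most, at 9.9 to 28.3 per degree of freedom, with a rho of -0.50 for replicate 1 and 0.56 for replicate 3. Other groups reached at most 5.46, and CKI plus 5-FU replicate 2 had a rho of -0.43.

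In untreated cells the lines differed most in AKR1C1 and AKR1C2. AKR1C2 was at 59.5, 62.1 and 61.8 CPM in A431 and at 0.522, 1.01 and 0.684 CPM in MDA-MB-231. AKR1C1 was at 33.6, 33.5 and 34.1 CPM in A431 and at 1.98, 1.79 and 1.37 CPM in MDA-MB-231. For both genes every A431 library was far above every MDA-MB-231 library. The log2 difference, A431 over MDA-MB-231, was 6.38 ± 0.13 for AKR1C2 (adjusted p = 7.72e-14) and 4.34 ± 0.12 for AKR1C1 (adjusted p = 1.58e-12). AKR1C3 did not share this difference: it was at 12.8, 13.5 and 13.2 CPM in A431 and at 34.6, 16.9 and 15.7 CPM in MDA-MB-231, a log2 difference of -0.72 ± 0.23 that was not called (with a replicate block it was -1.03 ± 0.26 and was called, adjusted p = 0.00501 by edgeR). The high MDA-MB-231 value came from replicate 1, and without it the difference was -0.26 ± 0.08.

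AKR1A1 was higher in untreated A431 by 1.26 ± 0.09 (adjusted p = 1.89e-08), a call lost at 0.81 with GC and length offsets and the replicate block together, and AKR1B10 by 1.69 ± 0.38 (adjusted p = 0.00117). In all, 4 of 7 members were called between the untreated lines, all higher in A431, where 42.9% of genes were called and 22.5% were called higher in A431. AKR1B1, at 0.13 ± 0.06, and AKR7A2, at 0.02 ± 0.08, were not called. Without untreated MDA-MB-231 replicate 1 the same 4 genes were called, with AKR1B10 at 2.20 ± 0.43, AKR1C2 at 6.20 ± 0.12, AKR1C1 at 4.45 ± 0.13 and AKR1A1 at 1.38 ± 0.06, while AKR1B1 and AKR7A2 were at 0.13 and 0.11.

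Levels can be set against each other between genes only per length of transcript. Divided by the length of all annotated exons, AKR1B1 was at 51.7 ± 1.27 RPKM (reads per kilobase, scaled to library size; SD, n = 3) in untreated A431 and AKR1A1 at 49.5 ± 1.12, while AKR1B10 was at 0.787 ± 0.080. In untreated MDA-MB-231, AKR1B1 was at 48.5 ± 0.890 RPKM, AKR1C1 at 0.196 ± 0.036 and AKR1C2 at 0.121 ± 0.041. AKR1B1 came first among the members in every one of the 9 groups under each of 4 lengths tried (all exons, longest transcript, canonical transcript, coding sequence). The order of the AKR1C genes was AKR1C3, AKR1C1, AKR1C2 in every MDA-MB-231 group under each length. In the A431 groups their order turned on the length: annotated exons of AKR1C1 cover 8765 bases and those of AKR1C3 3911, around coding sequences of the same 972 bases.

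CKI raised 5 of the 7 genes in A431: AKR1B1, AKR1B10 and the AKR1C trio. Against untreated cells, 22.4% of genes were called and 12% were called upward. The AKR1B genes rose by very different amounts. AKR1B10 went from 1.56, 1.32 and 1.31 CPM in untreated cells to 25.2, 25.1 and 29.6 CPM with CKI, a 19.1-fold difference of means. AKR1B1 went from 187, 185 and 194 CPM to 498, 484 and 496 CPM, 2.61-fold. The groups did not overlap for either gene, and the log2 fold changes were 4.17 ± 0.14 for AKR1B10 (adjusted p = 5.97e-17) and 1.30 ± 0.05 for AKR1B1 (adjusted p = 4.82e-16).

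**Figure D1:**
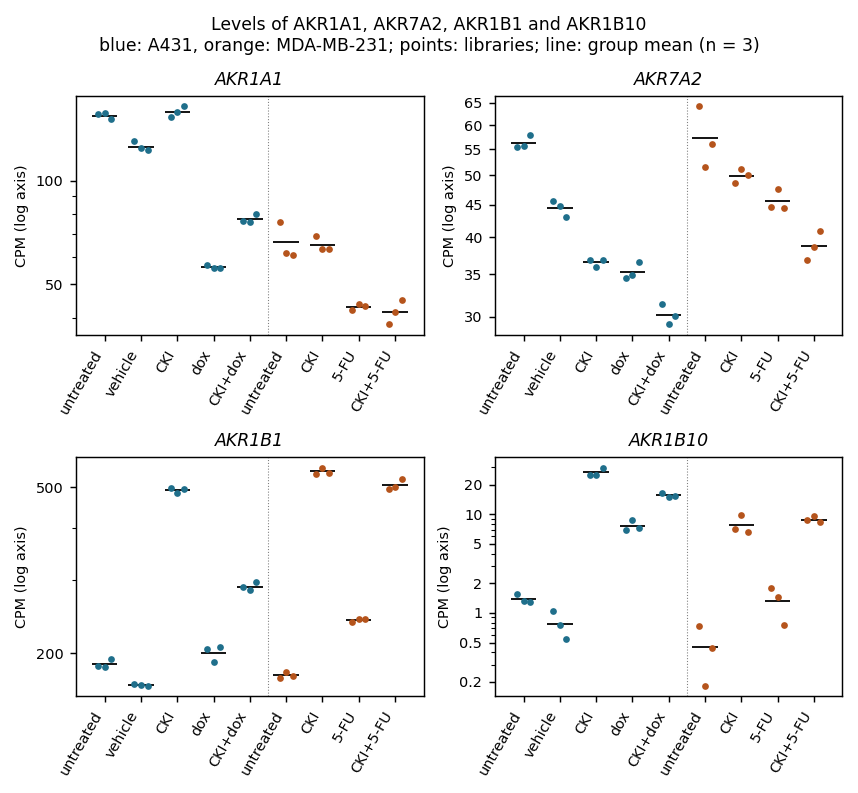
CPM (log axis) of AKR1A1, AKR7A2, AKR1B1 and AKR1B10 in each library, by group, with a line at the mean of 3 replicates; A431 stands left of the dotted line and MDA-MB-231 right of it. AKR1B10 sits at or below 1.56 CPM in the untreated cells of both lines and between 6.59 and 29.6 CPM wherever CKI was given, while AKR1A1 differs between untreated and CKI by less than the spread of replicates.

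Among the AKR1C genes, AKR1C3 changed most. It was at 12.8, 13.5 and 13.2 CPM untreated and at 157, 146 and 153 CPM with CKI, an 11.5-fold difference. AKR1C1 went from 33.6, 33.5 and 34.1 CPM to 164, 169 and 167 CPM. AKR1C2 went from 59.5, 62.1 and 61.8 CPM to 186, 183 and 188 CPM. No CKI library overlapped an untreated library for these genes, and the log2 fold changes were 3.45 ± 0.07 for AKR1C3 (adjusted p = 4.68e-20), 2.23 ± 0.07 for AKR1C1 (adjusted p = 2.88e-17) and 1.53 ± 0.06 for AKR1C2 (adjusted p = 1.35e-16). With the counts of AKR1C1 and AKR1C2 summed, so that reads shared between them could not move, the change was 1.82 ± 0.06.

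The broad aldehyde reductases did not rise. AKR1A1 was at 156, 157 and 150.5 CPM untreated and 153, 158 and 164 CPM with CKI, overlapping ranges with a log2 fold change of -0.04 ± 0.05 (adjusted p = 0.496). AKR7A2 was at 55.4, 55.6 and 57.9 CPM untreated and 36.9, 35.9 and 36.9 CPM with CKI. Every CKI library was lower, and the change of -0.70 ± 0.06 (adjusted p = 3.82e-10) was under the size limit for a call. In bulk RNA, less RNA per cell and fewer cells of a kind cannot be told apart.

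**Figure D2:**
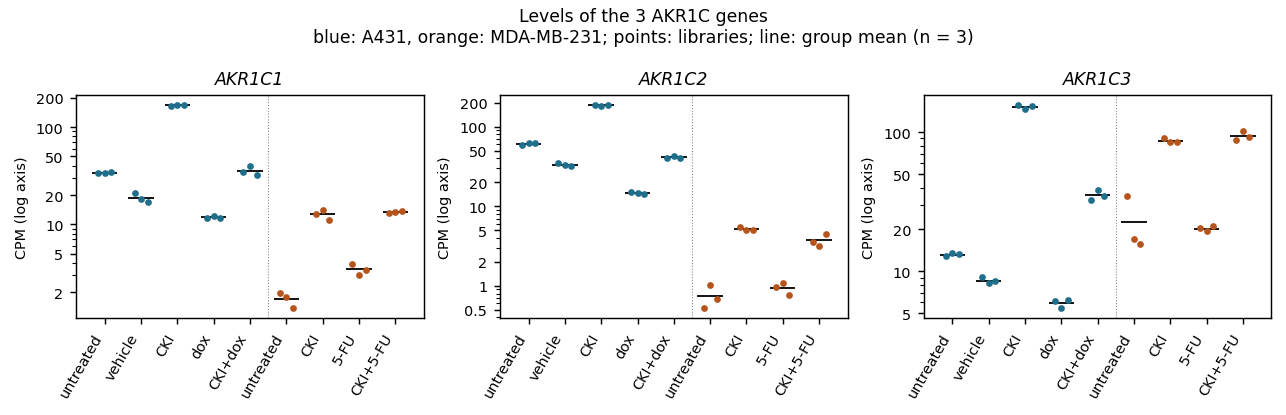
CPM (log axis) of AKR1C1, AKR1C2 and AKR1C3 in each library, by group, with a line at the mean of 3 replicates. All 3 genes are highest in A431 with CKI, at 146 to 188 CPM, and untreated MDA-MB-231 replicate 1 stands alone in AKR1C3 at 34.6 CPM.

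The 5 genes that CKI raised were lower with the vehicle control than in untreated A431. AKR1C2 was at 34.8, 33.2 and 31.7 CPM and AKR1C1 at 21.2, 18.3 and 17.0 CPM with vehicle, below every untreated library. The log2 fold changes were -0.86 ± 0.06 for AKR1C2, -0.83 ± 0.08 for AKR1C1, -0.82 ± 0.27 for AKR1B10 and -0.61 ± 0.09 for AKR1C3. The log2 fold changes of AKR7A2, AKR1A1 and AKR1B1 were -0.32, -0.28 and -0.15. None of the 7 was called by edgeR, while 2.54% of genes were, although all 7 had an adjusted p under 0.05, from 1.79e-10 to 0.0234. DESeq2 called none either. With offsets for GC content and length, AKR1C2 at -1.11 ± 0.05 and AKR1C1 at -1.08 ± 0.07 were called. AKR1B10 at -0.85 and AKR1C3 at -0.72 kept an adjusted p under 0.05 with these offsets. AKR1B1 at -0.08, AKR1A1 at -0.08 and AKR7A2 at 0.07 did not, with adjusted p of 0.239, 0.295 and 0.517 by edgeR. Without vehicle control replicate 1 AKR1B10 was called at -1.07.

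Set against the vehicle control, CKI raised the same 5 genes by more, and both comparisons share the CKI libraries. Of all genes, 19.5% were called and 11.3% were called upward. The log2 fold changes were 5.00 ± 0.16 for AKR1B10, 4.06 ± 0.08 for AKR1C3, 3.06 ± 0.08 for AKR1C1, 2.39 ± 0.06 for AKR1C2 and 1.45 ± 0.05 for AKR1B1. The largest adjusted p of these was 1.07e-16. AKR1A1 at 0.24 ± 0.05 and AKR7A2 at -0.38 ± 0.06 were not called.

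In MDA-MB-231, CKI raised AKR1B1, AKR1B10, AKR1C1, AKR1C2 and AKR1C3, the genes that it raised in A431. Here 5 of 7 members were called where 5.96% of genes were called and 3.76% were called upward. AKR1B10 had 14, 4 and 9 counts in untreated cells, or 0.730, 0.184 and 0.440 CPM, and was at 7.06, 9.86 and 6.59 CPM with CKI. AKR1B1 went from 175, 181 and 176 CPM to 539, 557 and 542 CPM. The groups were far apart for both, and the log2 fold changes were 4.13 ± 0.34 for AKR1B10 (adjusted p = 3.45e-06) and 1.62 ± 0.05 for AKR1B1 (adjusted p = 1.72e-09).

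The AKR1C genes also rose. AKR1C1 was at 12.6, 14.2 and 11.1 CPM with CKI against 1.98, 1.79 and 1.37 CPM untreated, and AKR1C2 was at 5.45, 5.00 and 5.05 CPM against 0.522, 1.01 and 0.684 CPM. These are changes of 2.88 ± 0.15 (adjusted p = 8.18e-08) and 2.78 ± 0.22 (adjusted p = 2.41e-06). AKR1C3 was at 90.2, 85.1 and 85.5 CPM with CKI against 34.6, 16.9 and 15.7 CPM, a change of 1.96 ± 0.22 (adjusted p = 4.18e-05). No library of one group overlapped the other, though untreated replicate 1 lay nearest to the CKI libraries for AKR1C3.

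Without untreated replicate 1 the same 5 genes were called, and the change of AKR1C3 was 2.41 ± 0.07, that of AKR1B10 4.65 ± 0.33, that of AKR1C1 2.99 ± 0.17, that of AKR1C2 2.59 ± 0.24 and that of AKR1B1 1.61 ± 0.04. AKR1A1, at 69.1, 63.4 and 63.3 CPM with CKI against 76.0, 61.8 and 60.7 CPM, had a log2 fold change of -0.02 ± 0.09 and was not called. AKR7A2, at -0.20 ± 0.08, was not called either. Without untreated replicate 1 these were at 0.09 ± 0.06 and -0.11 ± 0.06.

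The size of the CKI response against untreated cells differed between the lines for AKR1C2 and AKR1C3, in opposite directions. The interaction, the change in A431 less the change in MDA-MB-231, was -1.24 ± 0.18 for AKR1C2 (adjusted p = 9.38e-05), which rose more in MDA-MB-231 from a much lower level. It was 1.50 ± 0.31 for AKR1C3 (adjusted p = 0.00143), which rose more in A431. So 2 of 7 members were called where 18.5% of genes were. Both calls held under each of the 20 alternatives that gave a value, at -1.54 to -1.06 and at 1.04 to 1.71. Every alternative kept untreated cells as the reference. Against the vehicle control, the A431 changes were 2.39 for AKR1C2 and 4.06 for AKR1C3. In MDA-MB-231, against untreated cells, they were 2.78 and 1.96. A difference between the lines with vehicle as the reference was not tested, since MDA-MB-231 had no vehicle group. Without untreated MDA-MB-231 replicate 1 the interactions were -1.06 ± 0.21 and 1.04 ± 0.10. AKR1C1 at -0.64 ± 0.16, AKR1B1 at -0.31 ± 0.08 and AKR7A2 at -0.50 ± 0.12 had an adjusted p under 0.05 without reaching the size limit. AKR1B10, at 0.05 ± 0.62, had a standard error too wide to place its difference, and AKR1A1 was at -0.01. Without that library AKR1C1 was at -0.76 ± 0.18, AKR1B1 at -0.30 ± 0.07, AKR7A2 at -0.59 ± 0.08, AKR1B10 at -0.47 ± 0.48 and AKR1A1 at -0.13 ± 0.07, none of them called.

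**Figure D3:**
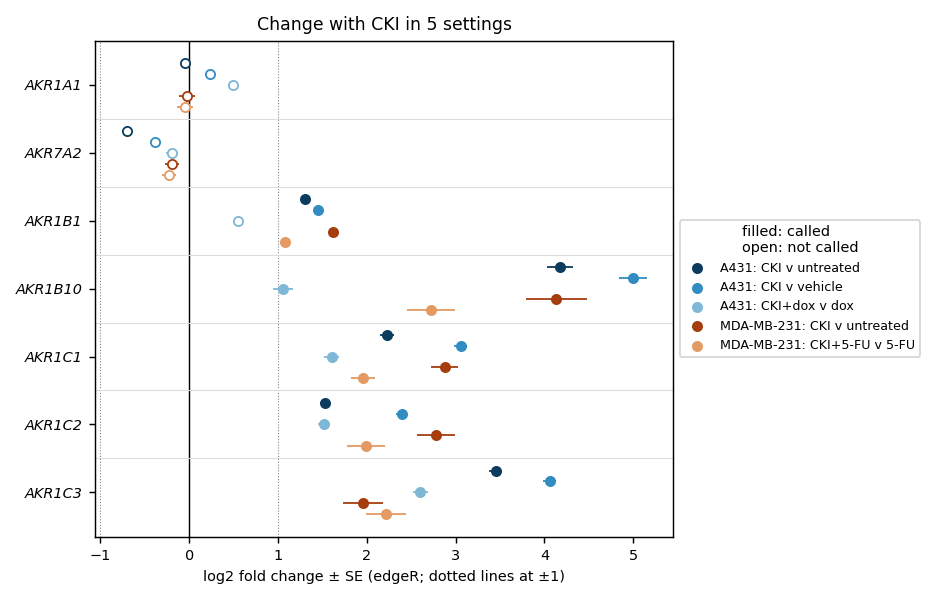
Log2 fold changes ± standard error (edgeR) of the 7 genes with CKI in 5 settings; filled points were called and open points were not, and dotted lines stand at -1 and 1. AKR1B10 and the AKR1C genes lie right of 1 in all 5 settings, AKR1B1 in all but CKI plus doxorubicin against doxorubicin, and AKR1A1 and AKR7A2 in none.

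Doxorubicin, an anthracycline that breaks DNA, split the family in A431. Against untreated cells, 37.3% of genes were called and 14.3% were called downward. AKR1A1, AKR1C1, AKR1C2 and AKR1C3 fell, and AKR1B10 rose. AKR1C2 was at 15.2, 14.5 and 14.3 CPM with doxorubicin against 59.5, 62.1 and 61.8 CPM untreated. AKR1A1 was at 57.0, 55.7 and 55.9 CPM against 156, 157 and 150.5 CPM. Neither gene's groups overlapped, and the changes were -2.11 ± 0.06 for AKR1C2 (adjusted p = 3.14e-18) and -1.51 ± 0.05 for AKR1A1 (adjusted p = 6.49e-17).

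AKR1C1 was at 11.7, 12.1 and 11.7 CPM with doxorubicin, a change of -1.56 ± 0.09 (adjusted p = 1.22e-13). AKR1C3 was at 6.15, 5.42 and 6.25 CPM, a change of -1.20 ± 0.10 (adjusted p = 8.52e-11) that was -0.86 and not called with scaling by library size alone. AKR1B10, the retinal reductase, moved the other way, to 7, 8.71 and 7.28 CPM, a change of 2.40 ± 0.17 (adjusted p = 9.86e-12). All 3 doxorubicin libraries lay above all 3 untreated libraries for AKR1B10 and below them for the AKR1C genes. AKR1B1 at 0.04 ± 0.05 and AKR7A2 at -0.73 ± 0.06 were not called.

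On top of doxorubicin, CKI raised AKR1B10 and the AKR1C genes, 4 of 7 members, where 14.9% of genes were called and 6.89% were called upward. AKR1C3 went from 6.15, 5.42 and 6.25 CPM to 32.8, 38.5 and 34.9 CPM, a change of 2.60 ± 0.08 (adjusted p = 5.84e-17). AKR1C1 and AKR1C2 changed by 1.61 ± 0.08 and 1.51 ± 0.06. AKR1B10 went from 7, 8.71 and 7.28 CPM to 16.4, 15.1 and 15.4 CPM, a change of 1.06 ± 0.11 (adjusted p = 1.58e-08) that was close to the size limit and was 0.99, no longer called, without doxorubicin replicate 1. AKR1B1 was at 205, 191 and 207 CPM with doxorubicin and 288, 283 and 296 CPM with both, a log2 fold change of 0.55 ± 0.05 that was not called. AKR1A1 at 0.49 ± 0.05 and AKR7A2 at -0.20 ± 0.06 were not called.

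Compared with CKI alone, the combination with doxorubicin lowered the AKR1C genes by similar amounts. AKR1C1 fell by 2.19 on the log2 scale, AKR1C2 fell by 2.13 and AKR1C3 fell by 2.05, each with a standard error of 0.06 to 0.07 and an adjusted p of 3.58e-17 or less. These were 3 of 7 members, where 25.7% of genes were called and 9.06% were called downward. AKR1A1, at -0.98 ± 0.05, was at the edge of the size limit, and was called without CKI replicate 1 (-1.02) or without CKI plus doxorubicin replicate 3 (-1.01). With offsets for GC content and length, AKR1A1 at -1.11 and AKR1B10 at -1.08 were called as well. In the main test AKR1B1 and AKR1B10 were both at -0.72 and AKR7A2 was at -0.22, none of them called. In the combination, AKR1C1 was back at 34.2, 39.5 and 32.3 CPM, overlapping the untreated 33.5 to 34.1 CPM, while AKR1C3 stayed above its untreated level and AKR1C2, at 40.7, 42.4 and 40.2 CPM, below it.

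**Figure D4:**
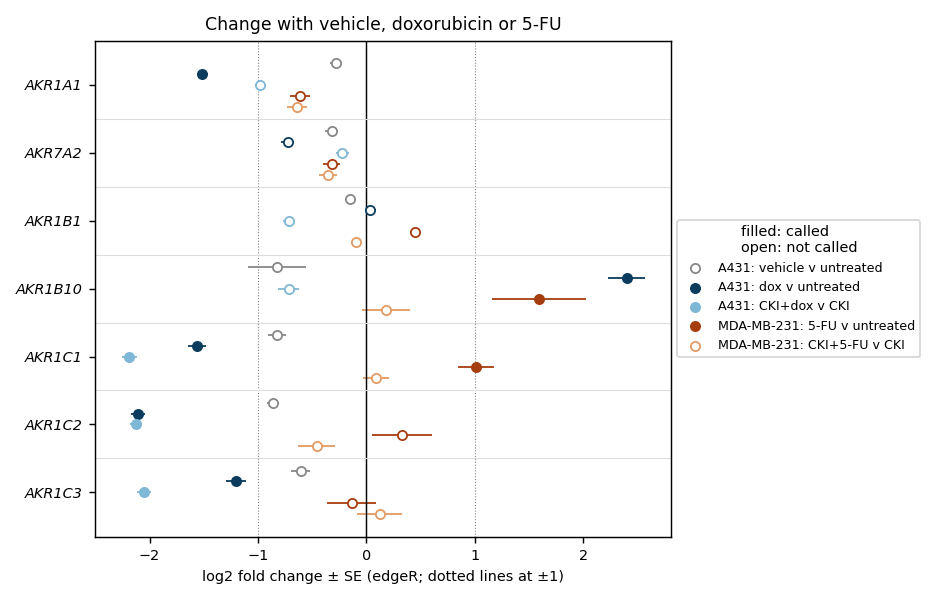
Log2 fold changes ± standard error (edgeR) of the 7 genes with vehicle, doxorubicin or 5-FU, each against the matching cells without it; filled points were called and open points were not, and dotted lines stand at -1 and 1. Against untreated cells, doxorubicin gives calls on both sides of zero, from -2.11 for AKR1C2 to 2.40 for AKR1B10, and 5-FU gives calls for AKR1B10 and AKR1C1 only. Added to CKI, doxorubicin reaches -2.19 for AKR1C1, and 5-FU gives no call.

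The CKI responses with and without doxorubicin differed in size for AKR1B10. Its change with CKI was 4.17 from the untreated level and 1.06 from the doxorubicin level, an interaction of -3.12 ± 0.19 (adjusted p = 8.30e-12), and it was the only member called where 19.5% of genes were. AKR1C3 at -0.85 ± 0.12, AKR1B1 at -0.75 ± 0.07 and AKR1C1 at -0.62 ± 0.11 had smaller CKI changes with doxorubicin, and AKR1A1 at 0.53 ± 0.08 and AKR7A2 at 0.50 ± 0.09 higher ones. All 5 had an adjusted p under 0.05 and were under the size limit. For AKR1C2 the interaction was -0.02 ± 0.09 (adjusted p = 0.900), with CKI changes of 1.53 and 1.51.

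In MDA-MB-231, 5-FU, a pyrimidine analogue, raised AKR1B10 and AKR1C1. These were 2 of 7 members, where 13.3% of genes were called and 6.01% were called upward. AKR1C1 was at 3.91, 2.98 and 3.41 CPM with 5-FU against 1.98, 1.79 and 1.37 CPM untreated, with no overlap. AKR1B10 was at 1.77, 1.47 and 0.758 CPM against 0.730, 0.184 and 0.440 CPM, where the lowest 5-FU library and the highest untreated library almost touch. The changes were 1.01 ± 0.17 for AKR1C1 (adjusted p = 0.000295) and 1.59 ± 0.44 for AKR1B10 (adjusted p = 0.00782).

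The call of AKR1C1 was at the size limit and was lost in several settings: the change was 0.91 without 5-FU replicate 1 and 0.87 without untreated replicate 3, 0.99 with offsets for GC content and length, and 0.84 with AKR1C1 and AKR1C2 summed, none of them called. AKR1A1 was at -0.61 ± 0.09, AKR1B1 at 0.45 ± 0.05, AKR7A2 at -0.32 ± 0.08 and AKR1C2 at 0.33 ± 0.28, none of them called. AKR1C3 was at -0.13 ± 0.23 with all libraries and at 0.31 ± 0.08 without untreated replicate 1, so its direction depends on that library. Without that library AKR1B10 was at 2.10 ± 0.46 and AKR1C1 at 1.12 ± 0.21, both called, and AKR1A1 was at -0.51, AKR1B1 at 0.43, AKR7A2 at -0.23 and AKR1C2 at 0.14.

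On top of 5-FU, CKI raised the same 5 genes as it did without 5-FU. This comparison does not use the untreated libraries, and 9.77% of genes were called in it, 5.26% upward. AKR1C3 went from 20.3, 19.4 and 21.1 CPM to 88.3, 102 and 92.0 CPM, a change of 2.21 ± 0.22 (adjusted p = 8.54e-06). AKR1B10 went from 1.77, 1.47 and 0.758 CPM to 8.66, 9.50 and 8.38 CPM, a change of 2.72 ± 0.27 (adjusted p = 7.93e-06). For both genes all CKI plus 5-FU libraries lay above all 5-FU libraries. AKR1C1 and AKR1C2 changed by 1.96 ± 0.13 and 1.99 ± 0.21, and AKR1B1 by 1.08 ± 0.05 (adjusted p = 1.74e-08). AKR1A1 at -0.05 ± 0.09 and AKR7A2 at -0.23 ± 0.08 were not called.

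Adding 5-FU to CKI gave no call among the 7 by edgeR or DESeq2, where 3.81% of genes were called by edgeR. AKR1C3 was at 88.3, 102 and 92.0 CPM with both and 90.2, 85.1 and 85.5 CPM with CKI alone, overlapping ranges and a change of 0.12 ± 0.21. AKR1C1, at 0.09 ± 0.12, and AKR1B10, at 0.18 ± 0.22, also overlapped. AKR1A1 at -0.64 ± 0.09, AKR7A2 at -0.36 ± 0.08 and AKR1C2 at -0.46 ± 0.17 had adjusted p of 0.000238, 0.00432 and 0.0466 and were under the size limit.

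The interaction of CKI and 5-FU was called for AKR1B10 alone, where 6.84% of genes were called. Its CKI change was 4.13 without 5-FU and 2.72 with it, a difference of -1.41 ± 0.49 (adjusted p = 0.0461). This call was lost in 9 of 12 fits that left out a library, with values from -1.92 to -1.02, and untreated counts of 4 to 14 per library stand behind it. Without untreated replicate 1 it was -1.92 ± 0.50 (adjusted p = 0.00227), and AKR1C1 at -1.03 ± 0.23 was called too. With all libraries AKR1C1 was at -0.92 ± 0.21 and AKR1B1 at -0.54 ± 0.07. AKR1C2 at -0.78 ± 0.33 and AKR1C3 at 0.26 ± 0.31 had adjusted p of 0.0861 and 0.557, and AKR1A1 and AKR7A2 were not called. Without untreated replicate 1 AKR1C3 was at -0.19 ± 0.10, AKR1C2 at -0.60 ± 0.35, AKR1B1 at -0.53 ± 0.06, AKR1A1 at -0.13 ± 0.09 and AKR7A2 at -0.12 ± 0.08.

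**Figure D5:**
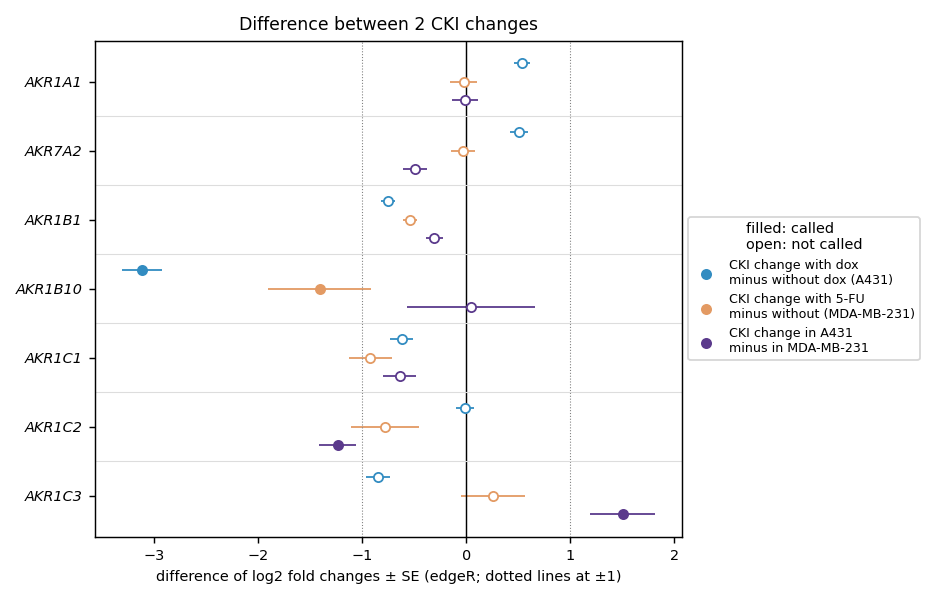
Differences between 2 CKI changes (log2 fold change ± standard error, edgeR): with less without doxorubicin in A431, with less without 5-FU in MDA-MB-231, and A431 less MDA-MB-231. Filled points were called, and AKR1B10 is the farthest from zero at -3.12 for doxorubicin, with AKR1C2 at -1.24 and AKR1C3 at 1.50 for the cell lines.

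Ranked over the 9 groups, the members fell into different orders. AKR1B1 was highest in the 3 groups with CKI and without doxorubicin, at 546 ± 9.68 CPM in MDA-MB-231 with CKI, 507 ± 15 with CKI plus 5-FU and 492 ± 7.36 in A431 with CKI (SD, n = 3). The last 2 of these overlapped. AKR1B10 was highest in A431 with CKI, at 26.7 ± 2.57 CPM, and then with CKI plus doxorubicin, at 15.6 ± 0.669. CKI plus 5-FU, CKI in MDA-MB-231 and doxorubicin followed at 8.85, 7.84 and 7.66 CPM, each overlapping the next, and the 4 lowest groups, from 1.39 to 0.451 CPM, each overlapped the next as well.

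AKR1C1 and AKR1C2 kept A431 with CKI far above all else, at 167 ± 2.82 and 186 ± 2.47 CPM. AKR1C1 in MDA-MB-231 was at only 12.6 ± 1.54 CPM with CKI and 13.3 ± 0.45 CPM with CKI plus 5-FU. Both were below untreated A431 at 33.7 ± 0.340 CPM. AKR1C3 had another order: A431 with CKI at 152 ± 5.44 CPM was followed by both MDA-MB-231 groups with CKI, at 94.1 ± 7.06 and 86.9 ± 2.81 CPM, which overlapped. AKR1A1 ran from 158 ± 5.78 CPM in A431 with CKI, overlapping untreated A431, to 41.6 ± 3.39 CPM in MDA-MB-231 with CKI plus 5-FU, overlapping 5-FU. AKR7A2 had the narrowest span, from 57.2 ± 6.40 CPM in untreated MDA-MB-231 to 30.2 ± 1.12 CPM in A431 with CKI plus doxorubicin.

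Over the means of the 9 groups, with each line's log2 CPM centred on its own mean, AKR1C1 ran closest with AKR1C2 (Pearson's r = 0.972), then with AKR1C3 (0.945) and AKR1B1 (0.934). AKR1B1 and AKR1B10 had an r of 0.914. AKR7A2 had negative values with AKR1B10 (-0.747) and AKR1B1 (-0.519), and AKR1A1 was nearest to AKR7A2 (0.685). Among 13374 genes other than the members, the most like AKR1B1 was SRXN1 (sulfiredoxin, r = 0.992), followed by PTGR1 (prostaglandin reductase, 0.970) and ESRRA (0.970). AKR1C1 was most like SYNPR-AS1 (0.984), MPP7 (0.973) and TRIM16L (0.965), and AKR1C2 like SLC34A3 (0.974), SYNPR-AS1 (0.970) and CCDC85B (0.964). AKR1C3 was most like PPARA (0.977), a fatty acid receptor, C11orf54 (0.974) and PIK3CD (0.966). AKR1B10 was most like CYP1B1-AS1 (0.978), GSTM3 (0.977), a glutathione transferase, and LINC02210 (0.975). AKR1A1 was most like INHBB (0.996), OPLAH (0.993) and PLXNB2 (0.990), and AKR7A2 like RFXANK (0.984), ZNF581 (0.977) and CLPP (0.969). These values describe 9 group means, and no test was made of them. The genes other than members were picked as the highest of 13374.

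Of 10 other aldo-keto reductase family genes, 9 had a row, and most were scarce. KCNAB2, a potassium channel beta subunit of the same protein fold, rose with CKI in A431. It was at 28.0 ± 1.91 CPM in untreated A431 and 71.9 ± 1.16 with CKI, a change of 1.28 ± 0.08 (adjusted p = 5.58e-13), and 1.59 against vehicle control. In MDA-MB-231 it was at 3.18, 6.15 and 6.40 CPM untreated and 11.7 ± 0.725 with CKI, a change of 1.15 ± 0.21 (adjusted p = 0.00106) whose call rested on untreated replicate 1, since without it the change was 0.90 ± 0.13. AKR1B15, the close relative of AKR1B10, had 0 or 1 counts per untreated A431 library and 15 to 29 with CKI, and was called upward. Reads of such relatives could be shared with AKR1B10. AKR7A3, at 9 to 15 counts untreated and 4 to 8 with CKI, was called downward in A431 (-1.38 ± 0.42, adjusted p = 0.00576). AKR1E2 stayed between 2.72 and 4.93 CPM in all groups, and AKR1C4 and AKR1D1 had at most 12 and 19 counts in any library. AKR7L and KCNAB3 were not called with CKI against untreated cells in either line, and KCNAB1 rose with doxorubicin (1.44 ± 0.25, adjusted p = 1.70e-05) from 0.913 ± 0.236 to 2.60 ± 0.211 CPM.

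Some other NRF2 targets were called upward with CKI and none downward. Of 24 such genes outside the family, 11 were called upward in A431 with CKI against untreated cells by edgeR, beside 12% of all genes, with a median log2 fold change of 0.96 against 0.003 over all genes. HMOX1 (heme oxygenase) rose by 2.37 ± 0.07. In MDA-MB-231, 9 of 23 tested were called upward beside 3.76% of all genes, and also 9 without untreated replicate 1, with a median of 0.87 against -0.008, and TRIM16L rose by 1.80 ± 0.06 (1.82 without that library). Against vehicle control 13 of 24 were called upward, beside 11.3% of all genes. On top of doxorubicin 8 of 24 were called upward, beside 6.89% of all genes, and on top of 5-FU 7 of 23, beside 5.26%. None were called downward in any of these comparisons. Doxorubicin alone gave 1 upward call, HMOX1 at 1.31 ± 0.07. It gave 8 downward calls, beside 14.3% of all genes, led by PIR (a NRF2-responsive iron protein) at -3.10 ± 0.07. The vehicle control gave no call among the 24 by edgeR, at a median of -0.01.

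Among 8 regulators of the NRF2 pathway, 5 were called upward in A431 with CKI against untreated cells, beside 12% of all genes, led by MAFG, a small partner protein of NRF2, at 1.31 ± 0.06. Against the vehicle control 2 of the 8 were called upward, beside 11.3% of all genes. The median was 0.31 there, against 1.05 with untreated cells as the reference and 0.30 for the vehicle control itself. None were called by edgeR in MDA-MB-231, with or without untreated replicate 1. In the interaction of line and CKI, 2 of the 8 were called higher in A431, where 18.5% of all genes were called in either direction. One of them was BACH1, a repressor of NRF2 targets, at 1.29 ± 0.11 and at 1.27 without that library.

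Lists of neighbouring enzymes showed mixed changes with CKI against untreated cells. Of all genes, 22.4% were called in A431 and 12% were called upward. In MDA-MB-231 these shares were 5.96% and 3.76%. Of 15 other carbonyl reductases, 4 rose and 2 fell in A431, RDH11 (a retinal reductase) at 1.19 ± 0.06 and DHRS4 at -1.25 ± 0.09, and 3 rose and 1 fell of 14 tested in MDA-MB-231. There HSD11B1, which regenerates cortisol from cortisone, rose by 3.45 ± 0.13 (3.37 without untreated replicate 1) and DHRS2 fell by 1.06, a call lost at -0.98 without that library. Of 11 aldehyde dehydrogenases, 3 rose and 1 fell in A431 and 1 of 9 rose in MDA-MB-231. ALDH1A3 rose by 1.24 ± 0.06 in A431, and ALDH3A1, the corneal aldehyde dehydrogenase, by 3.35 ± 0.42 in MDA-MB-231 (3.19 without untreated replicate 1). Against the vehicle control in A431, 2 of the 15 carbonyl reductases were called upward and 2 downward, and 2 of the 11 aldehyde dehydrogenases upward. In that comparison 19.5% of all genes were called and 11.3% were called upward.

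The counts that follow stand beside the same shares of all genes. With CKI against untreated A431, 22.4% were called, 12% upward, and against the vehicle control 19.5%, 11.3% upward. In MDA-MB-231 5.96% were called, 3.76% upward. Steroid and prostaglandin enzymes had 3 of 15 called upward and 0 downward in A431 by edgeR, near the share of all genes. They had 1 of 15 upward against the vehicle control, with 2 upward and 1 downward of 14 in MDA-MB-231. PTGS2, the inducible cyclooxygenase, rose by 2.44 ± 0.13 with CKI in A431, but also by 1.89 ± 0.13 with the vehicle control, both against the same untreated libraries. Retinoid handling genes had 4 upward and 3 downward calls of 12 in A431, but 0 upward and 3 downward against the vehicle control by edgeR. In MDA-MB-231 they had 1 upward call of 8, RARB at 1.66 ± 0.18, or 1.93 without untreated replicate 1. Of the polyol and hexose handling genes, the pathway neighbours of AKR1B1, 1 of 7 tested fell in A431, KHK (fructokinase) at -1.50 ± 0.18, and 1 of 7 rose in MDA-MB-231, SLC2A5 (a fructose transporter) at 1.40 ± 0.17, or 1.38 without untreated replicate 1. SORD, the enzyme after AKR1B1 in that pathway, was not called with CKI in either line.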

How the data were processed

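RNA-seq was made from 27 libraries in 9 groups with 3 replicates each. The authors trimmed reads with Trim Galore 0.3.7 and aligned them to hg19 with STAR 2.5.3a. They deposited raw counts per gene by Entrez ID, and the counting tool and annotation are not given in the sources used here. Libraries were unstranded per the labels. Of 24566 rows, 1597 had no count, and 24422 matched a RefSeq symbol. All columns were matched to labelled libraries. Coordinates and exon lengths came from a GRCh37 annotation, promoters from RefSeq on GRCh38.p14.

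Counts were tested with edgeR 4.0.16 in R 4.3.3 (TMM, filterByExpr, glmQLFit and glmQLFTest), with all groups of a line in the fit and the 12 untreated and CKI libraries in comparisons between lines. Interactions subtract the CKI change in the reference setting from that in the other. CPM and RPKM were computed here from the deposited counts with TMM factors over all libraries. Standard errors were derived from the fold change and the F statistic. Intervals cover the spread between libraries only. DESeq2 1.42.0, RLE factors, library size alone, other filters on low counts, only the compared groups, GC and length offsets, a replicate block, AKR1C1 and AKR1C2 summed, adjusted p alone, other lengths and leaving out single libraries were the alternatives, of which canonical transcript length and coding length were chosen after seeing the data. The fits were tested on simulated data. Genes named beside members were the gene of smallest adjusted p per direction in a list, family genes with counts, and the 3 genes most like each member. SORD, SPARC, and the genes named for being uncalled were chosen after their values were seen. Members and lists were chosen with earlier results of these data known.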

Additional observations from a re-analysis of the deposited data

Results flagged for a closer look

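Differences between 2 CKI changes were called for 3 genes, each by edgeR's test of the interaction itself. In A431 the CKI change of AKR1B10 was smaller with doxorubicin than without it, an interaction of -3.12 on the log2 scale (n = 3 libraries per group), with doxorubicin alone at 7.66 ± 0.920 CPM against 1.39 ± 0.142 untreated. In MDA-MB-231 the CKI change of AKR1B10 was smaller with 5-FU, an interaction of -1.41 at an adjusted p of 0.0461 by edgeR and 0.00759 by DESeq2, from 4 to 14 counts per untreated library. That call was lost in 9 of 12 fits without a library, and with a replicate block at an adjusted p of 0.0548 by edgeR.

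Between the lines, the CKI change of AKR1C2 against untreated cells was smaller in A431, an interaction of -1.24. That of AKR1C3 was larger in A431, an interaction of 1.505. Against the vehicle control, which MDA-MB-231 lacked, the A431 changes were 2.39 for AKR1C2 and 4.06 for AKR1C3. The untreated level of AKR1C2 was 61.1 ± 1.41 CPM in A431 and 0.739 ± 0.249 in MDA-MB-231. That of AKR1C3 was 13.2 ± 0.360 CPM in A431 and 34.6, 16.9 and 15.7 CPM in MDA-MB-231, a difference that was not called. The part of the starting level and of reads shared among the AKR1C genes in these differences was not tested. With AKR1C1 and AKR1C2 counted as 1 gene the difference between the lines was -1.03 ± 0.14.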

How the results depend on the processing

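The number of members called moved by over 1.5 times under some alternatives. With adjusted p alone and no size limit it was 7 for the vehicle control against untreated, 7 for CKI plus doxorubicin against doxorubicin and 7 against CKI, 6 for the CKI by doxorubicin interaction, 5 for 5-FU against untreated, 3 for CKI plus 5-FU against CKI, 3 for the CKI by 5-FU interaction and 5 for the line by CKI interaction. At that cut, 6748 of 15881 genes passed for the vehicle control, and 10102 and 11634 for CKI plus doxorubicin against doxorubicin and against CKI. The CKI by doxorubicin interaction had 9117. Of 13999 genes in MDA-MB-231, 7992 passed for 5-FU, 5889 for CKI plus 5-FU against CKI and 4396 for the CKI by 5-FU interaction. For the line by CKI interaction 6974 of 14848 passed. With GC and length offsets, without or with the replicate block, the number of members called was 2 for the vehicle control, 5 for CKI plus doxorubicin against CKI, 1 for 5-FU and 2 for the CKI by 5-FU interaction. A minimum of 10 counts in every sample removed AKR1B10 from MDA-MB-231, leaving 1 for 5-FU and 0 for the CKI by 5-FU interaction. Leaving out single libraries gave 0 to 1 for the vehicle control, 1 to 2 for 5-FU and 0 to 2 for the CKI by 5-FU interaction. Members called in the other comparisons stayed within 1.5 times under every alternative run.

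Same-numbered replicates did not vary together (correlations from -0.298 to 0.123). Whether they were set up or handled together cannot be told from these values. The replicate block took the CKI by 5-FU interaction from 1 member called to 0, and in it AKR7A2 between the untreated lines was at -0.063. It called AKR1C3 between the untreated lines at -1.03, and moved no other count of members by over 1.5 times.

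Of 1589 fold changes of the 7 genes under alternatives, 1479 kept direction and call, 18 lost a call, 20 gained one and 72 changed sign. Sign changes concerned values that were not called, and their cause was not tested. With GC and length offsets, without and with the block, AKR1A1 was at 0.20 and 0.20 for CKI in A431, 0.056 and 0.057 for CKI plus 5-FU against 5-FU, 0.11 and 0.11 for CKI by 5-FU and 0.34 and 0.33 for line by CKI. AKR7A2 was at 0.070 and 0.070 for the vehicle control, 0.073 and 0.073 for CKI plus doxorubicin against doxorubicin, 0.16 and 0.16 for CKI by 5-FU, -0.45 and -0.64 between untreated lines, and 0.13 and 0.11 for line by CKI. AKR1B1 was at -0.13 and -0.13 for doxorubicin, AKR1C2 at 0.015 and 0.015 for CKI by doxorubicin, and AKR1C1 at -0.054 and -0.051 for CKI plus 5-FU against CKI, where it was at -0.050 summed with AKR1C2. With library size alone, AKR1A1 was at 0.066 for CKI in A431, 0.049 for CKI in MDA-MB-231 and 0.018 for line by CKI, and AKR7A2 was at -0.11 between untreated lines. Without a filter on low counts, AKR1B1 was at -0.020 for doxorubicin, AKR1C2 at 0.0071 for CKI by doxorubicin, AKR7A2 at -0.073 between untreated lines and AKR1A1 at 0.068 for line by CKI. With 10 counts in every sample, DESeq2 and RLE factors, AKR7A2 was at -0.055, -0.059 and -0.059 between untreated lines and AKR1A1 at 0.080, 0.047 and 0.048 for line by CKI. With only the compared groups AKR7A2 was at -0.083.

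Where leaving out 1 library changed a sign, the ranges were -0.041 to 0.014 for AKR1C2 in CKI by doxorubicin, -0.077 to 0.087 for AKR1A1 with CKI in MDA-MB-231, -0.33 to 0.31 for AKR1C3 with 5-FU, and -0.11 to 0.010 for AKR1A1 in CKI plus 5-FU against 5-FU. In CKI by 5-FU they were -0.13 to 0.031 for AKR1A1, -0.19 to 0.46 for AKR1C3 and -0.12 to 0.038 for AKR7A2. Between untreated lines AKR7A2 ran from -0.088 to 0.11, and in line by CKI AKR1A1 ran from -0.13 to 0.10 and AKR1B10 from -0.47 to 0.45. The changes of AKR1C3 that use untreated MDA-MB-231 replicate 1 are given without it beside their values.

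Counts of all genes called moved by over 1.5 times in several comparisons. A minimum of 10 counts in every sample gave 174 in place of 404 for the vehicle control and 1837 in place of 4077 for CKI plus doxorubicin against CKI, where no filter gave 6171. It gave 3197 in place of 5925 for doxorubicin, 1989 in place of 3100 for CKI against vehicle, 1431 in place of 2369 for CKI on top of doxorubicin, 504 in place of 835 for CKI in MDA-MB-231, 903 in place of 1368 on top of 5-FU, 340 in place of 533 for CKI plus 5-FU against CKI and 3631 in place of 6367 between untreated lines. Adjusted p alone gave from 4396 to 12802 genes, over 1.5 times the main count in every comparison. GC and length offsets, without and with the block, gave 249 and 243 for the vehicle control and 336 and 331 for CKI plus 5-FU against CKI, and only the compared groups gave 263 for the vehicle control. Depth limits AKR1B10 and AKR1C2 in untreated MDA-MB-231, at 4 to 14 and 10 to 22 counts per library.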
